A study of Mus musculus with 8 samples.

Results

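Lens RNA was examined for 8 interferon-stimulated genes, namely Rsad2, Ifit1, Ifit2, Ifit3, Mx1, Isg15, Usp18 and Irf7. All probe sets of the MG-U74Av2 chip that the annotation assigns to these genes were taken, which gave 9 of 12422 probe sets (controls aside), 1 for each gene and a further 1 for Irf7. They are 8 of the 8251 genes named on the chip. The genes were chosen by the strain ratio of Rsad2 on these arrays, to which further well-known interferon targets were added. Ratios between strains are therefore given below as a description without a test, while the effects of the knockout were tested.

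The 8 arrays formed 4 groups of 2. The inbred mouse strains 129SvJae and C57BL/6J were each represented by wild type (WT) lenses and by lenses of mice in which the gene for the gap junction subunit α3 connexin 46 had been disrupted (α3Cx46 KO). All lenses came from untreated mice of both sexes at 10 days of age, and each RNA sample was a pool of 20 to 30 lenses. Each pair of arrays was labelled as separate samples, yet no source used here says if the pools came from separate animals, and p-values may then reflect no more than technical spread. Whole lenses were used.

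Interferons are secreted proteins that cells release when their sensors meet viral nucleic acid. They bind receptors that activate the kinases Jak1 and Tyk2, which pass the signal on to transcription factors in the nucleus. A complex that includes Irf9 binds interferon-stimulated response elements near the start of its target genes. The products act at different points. Rsad2 (viperin) and the Ifit proteins interfere with viral replication and translation, Mx1 is a GTPase that blocks viruses, Isg15 is a small protein that is attached to other proteins, Usp18 removes Isg15 and dampens the receptor, and Irf7 amplifies interferon production. The lens has no blood vessels and is made mostly of fiber cells under a single layer of epithelium.

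A signal is the MAS5 intensity of a probe set on an array scaled to a trimmed mean of 250, and it allows comparison of 1 probe set between arrays but not of different probe sets. Signals under 50 lie near the background of the chip, and a probe set was tested only where its mean exceeded 50 in at least 1 group. Ratios are differences of mean log2 signals, given with the standard error (SE) of the limma fit.

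Median signals were 85.2 to 114 on the 8 arrays, and 7637 to 8602 probe sets exceeded 50. A first scan session held the replicate 1 arrays of the 4 groups and another the replicate 2 arrays of 3 groups, while 129SvJae WT replicate 2 was scanned alone. For C57BL/6J WT replicate 1, a communication error of the fluidics station is recorded. Gja3, the gene that encodes α3Cx46, had signals of 1100.3, 3381, 1968 and 3274 on the 4 WT arrays and of 445 to 519 on the 4 KO arrays, lower on every KO array. The sources used here do not place this probe set inside or outside the disrupted region. The lens label was checked on markers of fiber cells. The crystallin Cryaa read 31275 to 72806, the water channel Mip 10994 to 16481 and the filament protein Bfsp1 22015 to 30679 over the 8 arrays.

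The start regions of the member genes were read from RefSeq (GRCm38.p6). The core of the interferon-stimulated response element, searched as GAAANNGAAA on both strands in windows from 250 bases before to 50 bases after the start, occurred in 1131 of all 32851 windows (3.44%), which belong to 1079 of 27025 genes (3.99%). A window was given for 6 of the 8 member genes, all but Usp18 and Mx1, and 4 of these 6 genes, or 4 of their 7 windows, held the core. The 160 bases before the start of these 4 genes are shown, because they set the letters of Rsad2, which had the largest strain ratio of the 8 genes, beside those of members with other patterns over the arrays. Capitals mark the core, which reads TTTCNNTTTC where it lies on the opposite strand.
Rsad2: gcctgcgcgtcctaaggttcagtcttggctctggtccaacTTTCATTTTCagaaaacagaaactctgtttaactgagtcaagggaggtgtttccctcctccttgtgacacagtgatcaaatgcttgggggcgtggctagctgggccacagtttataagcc
Ifit1: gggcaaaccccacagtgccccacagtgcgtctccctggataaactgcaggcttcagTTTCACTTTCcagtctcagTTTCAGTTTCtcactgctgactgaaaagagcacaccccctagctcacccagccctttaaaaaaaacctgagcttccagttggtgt
Ifit3: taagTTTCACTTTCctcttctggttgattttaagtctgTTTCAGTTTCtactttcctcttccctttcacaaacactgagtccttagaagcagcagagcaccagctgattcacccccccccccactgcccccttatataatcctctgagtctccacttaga
Isg15: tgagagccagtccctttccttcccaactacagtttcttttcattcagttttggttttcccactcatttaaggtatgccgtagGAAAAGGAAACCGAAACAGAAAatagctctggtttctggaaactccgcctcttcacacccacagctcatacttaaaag
The Rsad2 stretch lies at chr12:26456453-26456612 on the minus strand and holds the core once. Those of Ifit1 (chr19:34640729-34640888, plus strand) and Ifit3 (chr19:34583369-34583528, plus strand) hold it at 2 positions each. The Isg15 stretch (chr4:156200819-156200978, minus strand) holds 3 overlapping matches. Irf7 and the 2 windows of Ifit2 held no match, which says only that these letters are not in those windows.

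Rsad2 had the clearest pattern of the 8 genes. Its signals were 39.3 and 17.1 in 129SvJae WT lenses and 86.9 and 49.4 in 129SvJae KO lenses. In the C57BL/6J strain they were 241 and 152 in WT and 455 and 329 in KO lenses. All 4 C57BL/6J arrays thus lay above all 4 129SvJae arrays, and 3 of the 4 129SvJae arrays were under 50. Group means were 28.2 ± 15.7, 68.2 ± 26.6, 197 ± 62.8 and 392 ± 89.3 (SD, n = 2) in the order 129SvJae WT, 129SvJae KO, C57BL/6J WT and C57BL/6J KO. The ranges of no 2 groups overlapped, which was not counted over all probe sets. Since the RNA came from whole lenses, more Rsad2 RNA per cell and more cells that express it cannot be told apart. A sequence difference between the strains under the probes of Rsad2 could also change its signal and was not tested.

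**Figure D1:**
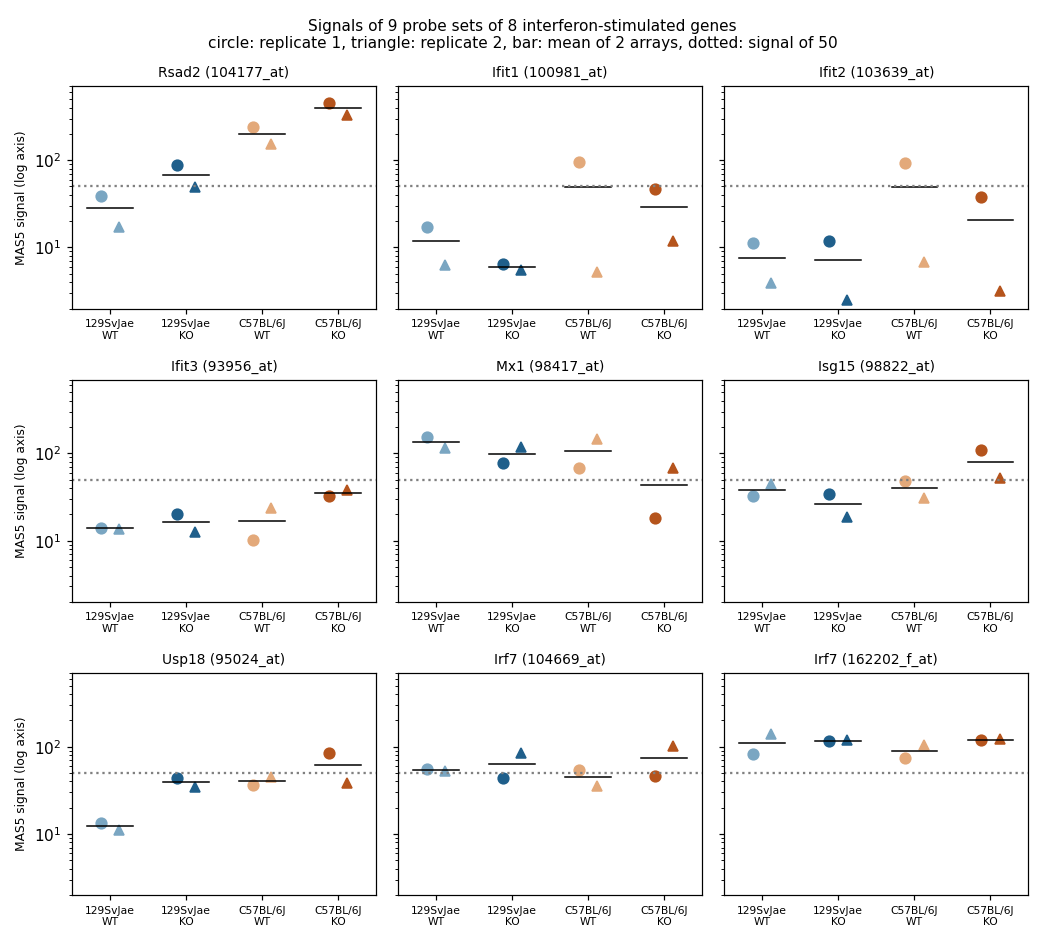
MAS5 signal of each member probe set (log axis) in the 4 groups, with circles for replicate 1, triangles for replicate 2, bars for the mean of 2 arrays and a dotted line at 50. The mean of Rsad2 is 28.2 in 129SvJae WT and 392 in C57BL/6J KO lenses, whereas Ifit1 and Ifit2 exceed 50 only on C57BL/6J WT replicate 1.

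The C57BL/6J to 129SvJae ratio of Rsad2 was 2.89 on the log2 scale (SE 0.63) in WT lenses and 2.56 (SE 0.63) in KO lenses. Averaged over genotypes it was 2.73 (SE 0.45), or 6.62-fold. The size depends on dim signals in 129SvJae lenses. With every signal under 50 set to 50, the ratio was 1.94 in WT lenses and 2.25 averaged. Within a scan session the sign of the ratio was fixed by the order of the arrays above, so that only its size is informative. The ratio was 2.62 in WT and 2.39 in KO lenses within the session of replicate 1, and 2.74 in KO lenses within that of replicate 2. Without C57BL/6J WT replicate 1, the array with the fluidics note, the ratio in WT lenses was 2.56. Of the 6 member probe sets tested, Rsad2 was the sole one with all C57BL/6J arrays above all 129SvJae arrays, an order found in 297 of the 10078 probe sets tested (2.95%). This order was known when the genes were chosen.

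Rsad2 was also higher in KO than in WT lenses on both arrays of each strain. This order, KO above WT within both strains, was found in 203 of the 10078 probe sets (2.01%), and among the 6 member probe sets only in Rsad2. The log2 ratio of KO to WT was 1.34 (SE 0.63) in 129SvJae and 1.01 (SE 0.63) in C57BL/6J lenses. Averaged over strains it was 1.18 (SE 0.45, 95% confidence interval 0.22 to 2.14), or 2.26-fold, with an unadjusted p of 0.0202 in limma. After Benjamini-Hochberg adjustment over all probe sets the p was 0.998, and the effect did not pass the threshold of 0.05. Within the session of replicate 1, KO lenses were higher by 1.15 in 129SvJae and by 0.92 in C57BL/6J, and within that of replicate 2 by 1.11 in C57BL/6J. The order of the arrays had also fixed the sign of these ratios. The interaction, which sets the 2 knockout effects against each other, was −0.33 (SE 0.89, 95% confidence interval −2.25 to 1.60). It neither passed the threshold nor excludes a difference of several fold. With signals under 50 set to 50, the KO to WT ratio was 0.40 in 129SvJae lenses and 0.71 averaged over strains. With single arrays left out, the ratio in 129SvJae lenses ran from 0.74 without WT replicate 2, the array scanned alone, to 1.94 without WT replicate 1.

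The 3 Ifit genes encode related RNA-binding proteins and were dim. All 8 signals of Ifit3 were under 50, from 10.3 on C57BL/6J WT replicate 1 to 38.3 on C57BL/6J KO replicate 2. Ifit1 read 17.4, 6.30, 6.40 and 5.50 on the 4 129SvJae arrays, then 94.2 and 5.30 on the WT and 46.5 and 11.99 on the KO arrays of C57BL/6J. Ifit2 read 11.4, 3.90, 11.8 and 2.50 on the 129SvJae arrays, then 92.3 and 6.89 on the C57BL/6J WT arrays and 38.1 and 3.20 on the KO arrays. For both genes the sole signal above 50 was that of C57BL/6J WT replicate 1, and replicate 2 of the same group lay below the highest 129SvJae array. The group means of 49.8 and 49.6 in C57BL/6J WT left both genes just outside the level of 50. Just inside it was Usp18, whose highest group mean was 62.0, in C57BL/6J KO lenses. Ifit1, Ifit2 and Ifit3 were therefore not tested with the others, and in a fit without the level filter their log2 ratios of KO to WT, averaged over strains, were −0.37 (SE 0.95), −0.74 (SE 1.07) and 0.70 (SE 0.66). Each SE exceeded or nearly equalled the ratio.

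The array that was high for Ifit1 and Ifit2 was also often the highest for other dim probe sets. Of the 3845 probe sets with a mean under 50, 25.2% had their highest signal on C57BL/6J WT replicate 1. The 4 replicate 2 arrays were each highest for 4.16% to 6.74%. Among the 54 dim probe sets of the member genes and interferon pathway lists, 19 (35.2%) peaked on C57BL/6J WT replicate 1 and 13 (24.1%) on C57BL/6J KO replicate 1. The part of the array or of its session in the Ifit1 and Ifit2 signals was not tested.

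**Figure D2:**
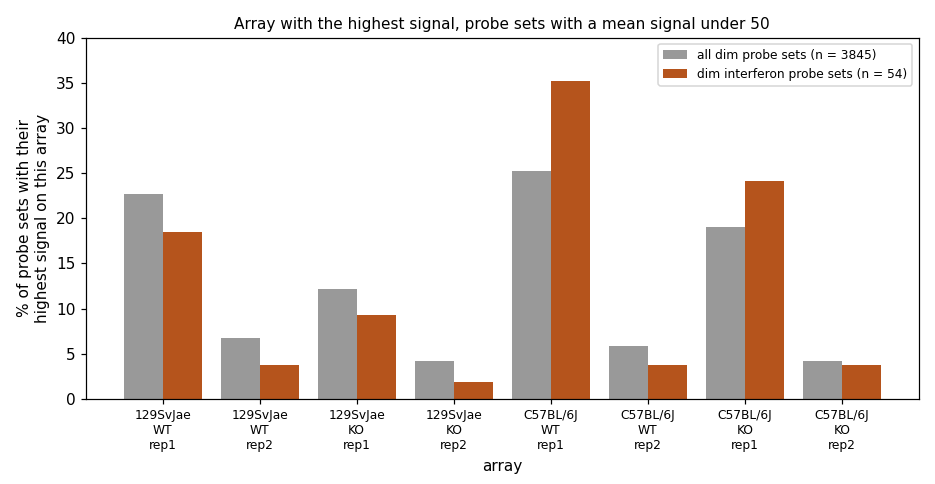
Percentage of probe sets with a mean signal under 50 that have their highest signal on each of the 8 arrays, for all 3845 such probe sets (grey) and for the 54 of the interferon genes (orange). Replicate 1 arrays hold most of the maxima in both sets, and C57BL/6J WT replicate 1 holds the most, with 25.2% and 35.2%.

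Mx1 had its lowest group mean in C57BL/6J KO lenses. In the 129SvJae strain WT lenses gave 154 and 116 and KO lenses 77.7 and 120. In the C57BL/6J strain WT lenses gave 68.3 and 147 and KO lenses 18.4 and 68.4. Both C57BL/6J KO arrays lay below all 4 129SvJae arrays, an order not counted over all probe sets. The higher of them was just above the lower C57BL/6J WT array, and the ranges of C57BL/6J WT and both 129SvJae groups overlapped as well. The log2 ratio of C57BL/6J to 129SvJae was −0.41 (SE 0.76) between WT lenses and −1.44 (SE 0.76) between KO lenses. That of KO to WT was −0.47 (SE 0.76) in 129SvJae and −1.50 (SE 0.76) in C57BL/6J lenses, and −0.98 (SE 0.54, limma adjusted p = 0.998) averaged over strains. RefSeq lists Mx1 of the C57BL/6J reference genome as a transcribed pseudogene, so a signal there reports RNA and not the full antiviral protein.

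Isg15, the modifier, was close to background in all groups but 1. WT and KO lenses of 129SvJae read 32.4 and 44.4 and then 34.7 and 18.7. Those of C57BL/6J read 48.1 and 31.3 (WT) and 108 and 52.3 (KO). Both C57BL/6J KO arrays were above the other 6 and were the only ones over 50. This order was not counted over all probe sets, and Isg15 passed the level filter only through this group, which favours it. The C57BL/6J to 129SvJae ratio was 0.03 (SE 0.91) between WT lenses and 1.56 (SE 0.91) between KO lenses on the log2 scale. The KO to WT ratio was −0.57 (SE 0.91) in 129SvJae and 0.96 (SE 0.91) in C57BL/6J lenses. Their difference, the interaction, was 1.53 (SE 1.28, limma adjusted p = 0.9998) and did not pass the threshold.

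Usp18, the protease that removes Isg15, was under 50 on 7 of 8 arrays. Among 129SvJae arrays, WT read 13.4 and 11.1 and KO 43.6 and 35.0. Among C57BL/6J arrays, WT read 36.2 and 44.5 and KO 85.0 and 38.9. The 2 129SvJae WT arrays were the lowest of all, an order not counted over all probe sets, and the ranges of the other groups overlapped. KO exceeded WT by 1.68 (SE 0.97) on the log2 scale in 129SvJae lenses and by 0.52 (SE 0.97) in C57BL/6J lenses, and neither passed the threshold (adjusted p = 0.9998 and 0.9999, from limma). The averaged ratio of 1.10 (SE 0.69) became 0.19 with all signals under 50 set to 50. The C57BL/6J to 129SvJae ratio was 1.72 (SE 0.97) between WT lenses and 0.56 (SE 0.97) between KO lenses.

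Irf7, the transcription factor, had small ratios. The dimmer probe set read 55.2 and 52.3 (WT) and 43.9 and 83.7 (KO) in 129SvJae lenses, and 54.5 and 35.4 (WT) and 46.7 and 101 (KO) in C57BL/6J lenses. The brighter probe set read 81.6 and 140, 117 and 118, 73.4 and 104, and 119 and 123 in the same order. All 4 groups of the dimmer probe set overlapped, and the brighter one stayed above 50 on every array, the only member probe set to do so. The brighter one is of a type whose probes match several members of a gene family, so its signal may not come from Irf7 alone. Averaged over genotypes, the log2 ratios of C57BL/6J to 129SvJae were −0.05 (SE 0.57) for the dimmer and −0.13 (SE 0.40) for the brighter. For the dimmer and then the brighter, those of KO to WT, averaged over strains, were 0.41 (SE 0.57) and 0.30 (SE 0.40), with 95% confidence intervals of −0.82 to 1.64 and −0.56 to 1.17.

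**Figure D3:**
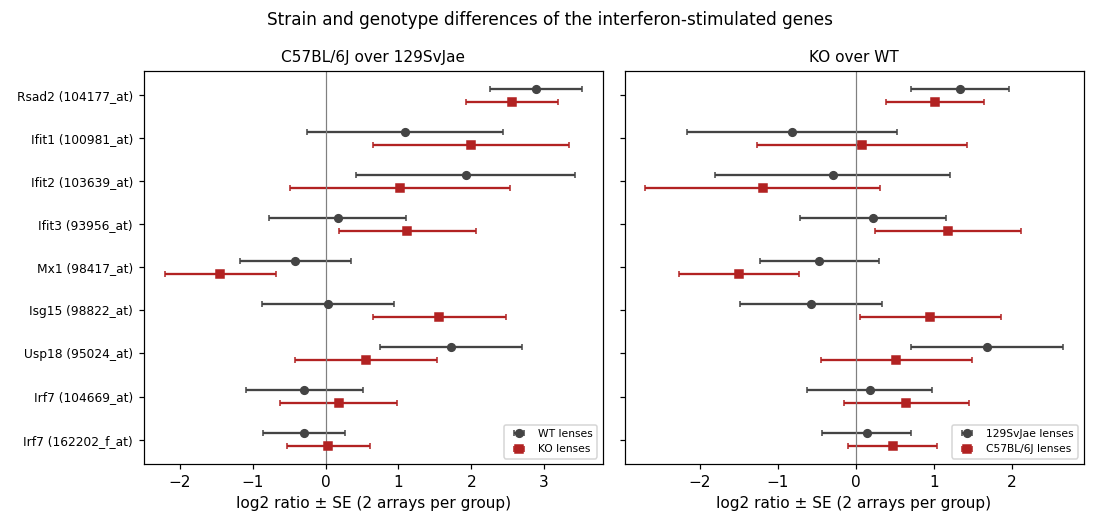
Log2 ratios ± SE of the 9 member probe sets, C57BL/6J over 129SvJae in WT and KO lenses (left) and KO over WT in 129SvJae and C57BL/6J lenses (right), from the fit without the level filter for Ifit1, Ifit2 and Ifit3. Rsad2 has the largest strain ratios (2.89 and 2.56), and Mx1 lies on the negative side in all 4 comparisons.

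Over the whole set, 6 of 9 member probe sets had a higher mean log2 signal in C57BL/6J than in 129SvJae lenses averaged over genotypes, with Mx1 and both Irf7 probe sets lower. Of the 72 member signals 42 (58.3%) were under 50, 24 of 36 in 129SvJae and 18 of 36 in C57BL/6J lenses, against 34.0% of the signals of all probe sets. No member probe set was called for the KO effect in 129SvJae, in C57BL/6J, averaged over strains or for the interaction (limma, adjusted p under 0.05). Of all 10078 probe sets tested, 0%, 0.00992%, 0.0198% and 0% were called in these comparisons, so that a lack of calls does not set the members apart. At an unadjusted p under 0.05, Rsad2 passed for the averaged effect and no member for the other 3. Over all 10078 probe sets, 314, 233, 307 and 213 passed that level in the same order of comparisons. The methods' t-test called 0 after adjustment and had 1 member at an unadjusted p under 0.05, in 129SvJae lenses. Both KO arrays were above both WT arrays for Rsad2 and Usp18 in 129SvJae (12.2% of all probe sets tested) and for Rsad2, Isg15 and the brighter Irf7 probe set in C57BL/6J (13.6%). Isg15 and Usp18 had a mean above 50 only in C57BL/6J KO lenses, so that the level filter itself favours a higher KO signal for them in that strain.

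Markers of blood-derived cells, which respond strongly to interferon, were looked at beside these values. Of the macrophage and leukocyte list, 15 of 17 genes were on the chip with 24 probe sets, and 12 of the 24 were under 50 on all 8 arrays. These included all probe sets of the lysozyme gene Lyz2, of Adgre1, of Aif1, of Itgam and of Cd3e. Another 4 of the 24 were above 50 on all 8 arrays. The 9 that passed the level filter belong to Cd68, Csf1r, Cd14, C1qb, C1qc, Tyrobp and Laptm5. Averaged over genotypes, 4 of these 9 were higher and 5 lower in C57BL/6J than in 129SvJae lenses. Averaged over strains, 5 were higher and 4 lower in KO than in WT lenses. The summed signal of the list was 3316 to 4042 (WT) and 5193 to 5343 (KO) in 129SvJae lenses, and 3092 to 6984 (WT) and 3843 to 4497 (KO) in C57BL/6J lenses. In this sum the C57BL/6J and 129SvJae arrays overlapped, and so did KO and WT in C57BL/6J, while both KO arrays were above both WT arrays in 129SvJae, where Rsad2 had the same order. Most of it came from 1 probe set of C1qb, while the other C1qb probe set was under 50 throughout. The pan-leukocyte gene Ptprc passed 50 on a single array with 1 of its 3 probe sets, at 63.6 on C57BL/6J WT replicate 1, the array with the highest Ifit1 and Ifit2. Of 9 probe sets of endothelial markers, 2 were above 50 on all 8 arrays and 0 were under 50 throughout. Among the 6 tested, 2 were higher in C57BL/6J than in 129SvJae WT lenses and 4 lower. Between KO lenses all 6 were higher in C57BL/6J. The part of leukocytes or endothelial cells in the member signals was not tested.

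The rest of the interferon pathway was described with 7 lists of 128 genes, none of them a member. The chip holds 86 of these genes in 114 probe sets, of which 80 passed the level of 50. None was called between strains, averaged over genotypes, or between KO and WT, averaged over strains (limma, against 0.367% and 0.0198% of all probe sets). At an unadjusted p under 0.05 there were 4 and 3 of the 80, beside 703 and 307 of all 10078 probe sets tested. The methods' t-test gave 3 and 6 of the 80 at that level, where its count over all probe sets was not taken. After adjustment it called 0 of the 80 in both comparisons, against 20 and 0 of all probe sets. For the strain comparison 44 of the 80 were higher and 36 lower in C57BL/6J, with a median log2 ratio of 0.04 against 0.01 for all probe sets. For KO against WT 39 were higher and 41 lower, with a median of −0.06 against −0.02.

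Of the ligand list, which also holds the cytokine Il15, 5 probe sets were tested, 4 higher in C57BL/6J than in 129SvJae lenses and 2 higher in KO than in WT lenses. The brightest were Ifna5, Ifnb1 and Ifna4. Ifnb1 ranged from 56.7 on C57BL/6J WT replicate 2 to 272 on 129SvJae WT replicate 1, with a log2 ratio of C57BL/6J to 129SvJae of −0.42 (SE 0.48). Ifna4 had a ratio of 1.25 (SE 0.57) and Ifna5 of 0.16 (SE 0.53). The probe sets of Ifna4 and Ifna5 are of a type whose probes match several members of a gene family, so the alpha interferons cannot be separated. Of 8 probe sets of receptors and kinases, 2 were higher in C57BL/6J and 3 in KO lenses. Jak1, the kinase of the receptors, read 36.1 and 33.8 on 1 WT array of each strain and 161 to 337 on the other 6, and its KO to WT ratio of 1.36 (SE 0.65) did not pass the threshold. The receptor chains Ifnar1 and Ifngr2 had strain ratios of −0.39 (SE 0.36) and 0.71 (SE 0.49).

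Of 9 probe sets of transcription factors, 7 were higher in C57BL/6J and 5 in KO lenses. Rela, the NF-κB subunit, read 952 to 1328 on the 8 arrays. The strain ratio was 0.02 (SE 0.16) for Rela, 0.16 (SE 0.21) for the brighter probe set of Stat3 and −0.11 (SE 0.43) for that of Irf3. Irf9, a DNA-binding subunit of the complex at these response elements, was above all 129SvJae arrays on each C57BL/6J array by a small margin, 49.6 to 147 against 17.0 to 49.1. Its ratio was 1.21 (SE 0.64, limma adjusted p = 0.794). Irf9 and Lgals3bp were the 2 of 80 pathway probe sets with this order, beside 297 of all 10078 probe sets tested (2.95%). They were picked out after their values were seen. Irf9 was under 50 on every 129SvJae array and passed the level filter only through C57BL/6J lenses, so that the filter favours a higher signal there. Of 6 probe sets of nucleic acid sensors and adaptors, 3 were higher in C57BL/6J and 5 in KO lenses. The adaptor Traf6 and the kinases Tbk1 and Ikbke had strain ratios of −0.39 (SE 0.28, brightest probe set), 0.17 (SE 0.35) and 0.13 (SE 0.47).

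Of 31 probe sets of other effectors, 18 were higher in C57BL/6J and 14 in KO lenses, and none passed the threshold. Lgals3bp, a secreted glycoprotein induced by interferon, read 21.7 to 34.7 on the 129SvJae arrays and 295, 88.4, 50.8 and 147 on the C57BL/6J arrays, which on the log2 scale is a ratio of 1.99 (SE 0.61, limma adjusted p = 0.347). It had the smallest p of the pathway lists between strains. As Lgals3bp passed the level of 50 only through C57BL/6J lenses, the filter favours a higher signal there for this gene too. Mx2, named here for its unadjusted p and as the relative of Mx1, was lower in C57BL/6J lenses by a ratio of −1.46 (SE 0.61, limma adjusted p = 0.637), with 21.8 to 56.2 against 55.2 to 156. The brightest of the list, Ly6e, Ifitm2 and Plac8, had strain ratios of 0.75 (SE 0.37, brighter probe set), −0.13 (SE 0.48) and 0.13 (SE 0.40). Cmpk2, named as the neighbour of Rsad2 on chromosome 12 and an interferon target as well, was below the level of 50 in every group with both probe sets. The brighter one read 86.5 and 83.8 on replicate 1 of C57BL/6J WT and KO but 10.5 and 15.3 on replicate 2, against 8.99 to 24.1 in 129SvJae lenses, so that it did not share the order of Rsad2.

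Of 8 probe sets for Isg15 conjugation and inhibitors, 3 were higher in C57BL/6J and 3 in KO lenses. Cish, Socs1 and Socs3 had strain ratios of 0.19 (SE 0.25), −0.08 (SE 0.26) and −0.04 (SE 0.35). Socs1, which blocks the kinases of the receptor, had a KO to WT ratio of 0.62 (SE 0.26, limma adjusted p = 0.998). Of 14 probe sets for antigen presentation, 8 were higher in C57BL/6J and 7 in KO lenses. The proteasome genes Psme1 and Psmb10 and the class II gene H2-Eb1 had strain ratios of −0.14 (SE 0.22), −0.13 (SE 0.29) and 0.34 (SE 0.36). Tapbp, named for its unadjusted p, loads peptides on class I molecules, and 1 of its 3 probe sets had a KO to WT ratio of −0.96 (SE 0.30), while the other two had 0.07 (SE 0.35) and −0.24 (SE 0.30).

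The probe sets closest to Rsad2 over the 8 arrays were not interferon genes of these lists. Likeness was taken as the root mean square difference of log2 signals, each centred on its own mean, among 8919 other tested probe sets with 1 gene symbol. The smallest values were 0.54 for Snn, 0.62 for Qsox1, 0.74 for Col11a1, 0.74 for AI506816 and 0.75 for Tbc1d15. Snn read 15.4, 14.1, 38.5 and 23.1 on the 129SvJae arrays and 89.2, 36.4, 129 and 85.4 on the C57BL/6J arrays. As with Rsad2, its KO arrays were above the WT arrays of each strain except for C57BL/6J WT replicate 1, which passed C57BL/6J KO replicate 2. Qsox1, a thiol oxidase, reached 138 on 129SvJae KO replicate 1 and 257 on C57BL/6J KO replicate 1, and Col11a1 is a fibrillar collagen. Usp18 ranked 33 (0.91), Isg15 363 (1.26), the Irf7 probe sets 3976 and 4561, and Mx1 8710 (2.29). The measure is a description, as all probe sets share the same 8 arrays.

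**Figure D4:**
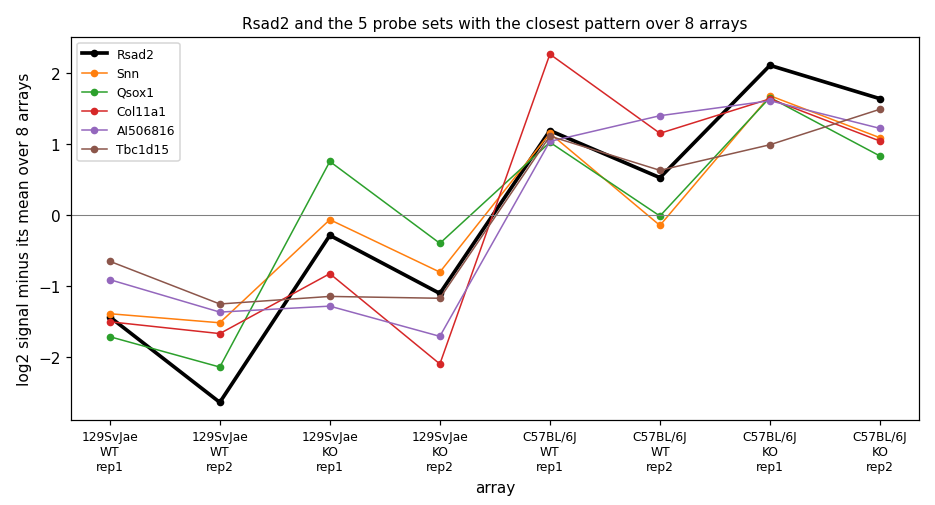
Log2 signal of Rsad2 (black) and of the 5 probe sets with the closest pattern, each minus its mean over the 8 arrays, with arrays along the horizontal axis. All 6 lines are lower on the 129SvJae arrays than on most C57BL/6J arrays, and Rsad2 spans the widest range.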

How the data were processed

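Biotin-labeled cRNA was hybridized by the authors to MG-U74Av2 chips, and for each array they deposited the intensity of every probe set, as a MAS5 signal scaled to a mean of 250 (tool named in the submitters' processing notes, no version). From these values the following was computed with R 4.3.3 and limma 3.58.1. Arrays were rescaled to a trimmed mean of 250 (2% off each end), signals under 1 were set to 1, and log2 was taken. The 66 control probe sets were left out, and 10078 of 12422 others, whose mean passed 50 in any group, were tested. Genes were named from the 10833 of the 12422 with 1 symbol, not from 396 with several or 1193 without. One limma fit with 4 group means and a trend in the variance prior (4 residual and 9.17 prior degrees of freedom) gave the main ratios. Those of Ifit1, Ifit2 and Ifit3 came from the same model fitted without the level filter. Ratios within a scan session are differences of log2 signals of single arrays. Calls needed a Benjamini-Hochberg adjusted p under 0.05 over all probe sets tested. The fit was tested on simulated signals with independent noise on each array. That test therefore does not cover the shared deviation of same-numbered arrays given below.

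The member genes, the lists and the tests were chosen with earlier results of these data known. All member probe sets, the 3 brightest genes of each pathway list and the 5 patterns closest to Rsad2 are named, and Irf9, Lgals3bp, Mx2, Tapbp and Cmpk2 were named after their values were seen. Arrays are not counts, so their number and the signal over background limit the precision. Same-numbered arrays deviated together from their group means (correlations of 0.13 to 0.206 over the probe sets in all 6 pairs of groups), and the number follows the scan session of the run records, so that it pairs the arrays. Alternatives were other scalings, treatments of low signals, level filters, variance priors, blocks, array weights, the methods' t-test and each array left out. The t-test was run on log2 signals with adjusted p, without the fold change limit and the unadjusted p limit of the authors. Its averaged comparisons pooled strains or genotypes without group means. Sequences are from RefSeq tables of GRCm38.p6. Detection calls and probe-level data were not used here.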

Additional observations from a re-analysis of the deposited data

How the results depend on the processing

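The counts of called member and pathway probe sets stayed at 0 under each of the 14 alternatives that apply and without each of the 8 arrays. With the replicate number as a block, which pairs the arrays, the KO to WT ratio of Rsad2 averaged over strains was 1.18 (limma adjusted p = 0.919), and 1.04 when the session served as the block (limma adjusted p = 0.622). No block changed a call. Over the alternatives this ratio was 0.71 to 1.29, over single arrays left out 0.88 to 1.48, and the adjusted p 0.622 to 0.9999. In 129SvJae lenses it was 0.40 with signals under 50 set to 50, against 1.34. The strain ratio of Rsad2 in WT lenses, 2.89, moved to 2.28 with an offset of 16 and to 1.94 with signals under 50 set to 50, and it was 2.29 without 129SvJae WT replicate 2 and 3.49 without replicate 1. Averaged over genotypes it was 2.43 to 3.03 with single arrays left out, and in KO lenses 2.15 to 2.97. The number of member probe sets higher in C57BL/6J was 6 or 7. The averaged KO ratio of Isg15, 0.19, ran from −0.072 without C57BL/6J KO replicate 1 to 0.45 without C57BL/6J KO replicate 2, and was −0.033 without 129SvJae KO replicate 1. Causes were not tested. Usp18 falls below the level of 50 without C57BL/6J KO replicate 1. Median centring took the median KO ratio over all probe sets in 129SvJae from −0.05 to 0.09. Genes with signals under 50 have no firm ratio.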
